A study of Mus musculus with 2 samples.

Results

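The miR-23/27/24 genes of the mouse form 2 paralogous clusters of 3 miRNA hairpins each, Mir23a, Mir27a and Mir24-2 on chromosome 8 and Mir23b, Mir27b and Mir24-1 on chromosome 13. These 6 hairpins were chosen by name out of the 2202 miRNA hairpins of the GENCODE M21 annotation. A read was assigned to a hairpin when it was at least 16 nt long and its whole sequence lay inside the hairpin on the sense strand without a mismatch. Together they collected 24937 reads of 70 distinct sequences in the WT library and 28255 reads of 72 distinct sequences in the KO library, and 86 distinct sequences in all. The WT library had 7551 distinct hairpin-matching sequences and the KO library 6394.

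The study sequenced small RNAs of fetal testes from mice that lack HSP90α, a cytosolic chaperone encoded by Hsp90aa1, and from wild-type mice. Each genotype was represented by 1 library, made from total RNA of 20 pooled whole testes of C57BL/6 embryos at embryonic day 16.5. The KO strain was an existing one whose allele is not described in the sources used here, and a whole fetal testis holds germ cells together with Sertoli, Leydig, peritubular and vascular cells. With 1 pool per genotype there was no replicate, so no difference between WT and KO has a replicate check and no p-value is given. In such bulk RNA, fewer cells of a type and less RNA per cell cannot be told apart.

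MicroRNAs are cut from a hairpin by Drosha and Dicer, and 1 strand of the resulting duplex, the guide, is kept by an Argonaute protein while the other, the passenger, is mostly degraded. The seed, bases 2 to 8 of the mature miRNA, pairs with target mRNAs, so copies with the same seed are expected to share most predicted targets. The hairpins of a miR-23/27/24 cluster are transcribed as a single primary transcript, and the mature miRNAs are known from endothelium, smooth muscle, lymphocytes and heart. In each of these hairpins the 3′ arm (3p) is the guide and the 5′ arm (5p) is the passenger.

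The sequences of the arms are shown because they decide which reads can be traced to a cluster. They are the RefSeq mature sequences on GRCm38.p6, written 5′ to 3′, with the seed in capitals. The miR-23 and miR-27 guides differ in seed but share its first 5 of 7 bases, UCACA, and the miR-24 guide has an unrelated seed.
miR-23a-3p: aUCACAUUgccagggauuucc
miR-27a-3p: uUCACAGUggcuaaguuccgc
miR-27b-3p: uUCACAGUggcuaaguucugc
miR-24-3p: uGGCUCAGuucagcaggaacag
miR-24-2-5p: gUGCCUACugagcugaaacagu
miR-24-1-5p: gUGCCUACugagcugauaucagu
miR-27a-5p: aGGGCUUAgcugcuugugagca
miR-27b-5p: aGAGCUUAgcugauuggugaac
The pair miR-27a-3p and miR-27b-3p has 1 difference, C19U, counted from 1 at the 5′ end with the miR-27a base first. It lies outside the seed, so both miR-27 guides fall in a single seed group. The guide miR-24-3p has the same sequence in Mir24-1 and Mir24-2, and its reads cannot be divided between the clusters. The passenger arms of the miR-24 pair do differ, from base 17 onward, and carry the same seed. The passenger arms of miR-27 differ already inside the seed. The guide of Mir23b is miR-23b-3p.

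Both clusters lie on the plus strand of GRCm38. Mir23a (chr8:84208518-84208592), Mir27a (chr8:84208672-84208758) and Mir24-2 (chr8:84208815-84208921) together span 404 nt. The chromosome 8 cluster lies outside annotated protein-coding genes, and the end of Mir24-2 overlaps the start of a lincRNA, Gm26532 (chr8:84208920-84209609). Mir23b (chr13:63300484-63300557), Mir27b (chr13:63300712-63300784) and Mir24-1 (chr13:63301208-63301275) span 792 nt. They lie within 2010111I01Rik (chr13:62964893-63326096), a protein-coding gene on the same strand that encodes an aminopeptidase. Mir23b is intronic there. Mir27b overlaps an exon of 1 transcript annotated for nonsense-mediated decay, and Mir24-1 overlaps exons of 4 non-coding or decay-annotated transcripts. Fancc, a Fanconi anaemia gene, crosses the chromosome 13 cluster on the opposite strand without an exon in it.

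The WT library held 6409305 reads and the KO library 5589326 reads, of which 2523084 (39.4%) and 2561491 (45.8%) matched a hairpin. Levels below are reads per 1000000 hairpin-matching reads (RPM). Mir10b alone held 558954 RPM in WT and 552438 RPM in KO. The detection floor of 3 reads was 1.19 RPM in WT and 1.17 in KO. Intervals are 95% Clopper-Pearson intervals. They cover counting error only, since PCR copies without molecular identifiers are not independent molecules. Mir202, a fetal gonad marker, held 1996 and 2134 RPM, and Mir126a, the endothelial marker, 5133 and 5147. For the list of pluripotent and early germ cell miRNAs, 10 of 11 markers were analysed and 2 of these were at 0 in both libraries. Its summed level was 640 RPM in WT and 860 in KO, a ratio of 1.34 (1.26 to 1.43). The remaining marker of this list, Mir292a, is annotated as Mir292 and was left out of the sum, with 394 reads in WT and 443 in KO. The mesenchyme and smooth muscle list (5 of 5 markers present) had a summed ratio of 1.02 over members that differed in direction. Mir143 was at 35494 RPM in WT and 28794 in KO, and Mir199a-1 at 11054 and 15056. The blood list had 323 RPM in WT and 258 in KO (4 of 5 analysed), from 816 and 662 reads. Its remaining marker, Mir142a, is annotated as Mir142 and was left out of the sum, with 1121 reads in WT and 935 in KO. Muscle miRNAs summed to 19.6 and 16.7 RPM, neuronal miRNAs to 16.6 and 14.4, and the liver marker Mir122 to 6.34 and 0.390. Mir122 had 16 reads in WT and 1 in KO, and the KO count lies below the detection floor. The part of cell composition in the values below was not tested. Hsp90aa1 itself gave 2 sense fragments in WT and 10 in the library labelled KO. The deleted part of the gene is not given in the sources used here and a small RNA library holds only mRNA fragments, so these reads do not check the genotype, and WT and KO below are the libraries as labelled.

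miR-27b-3p held most reads of the clusters. It had 22393 reads in WT, or 8875 RPM (8760 to 8992), and 25453 reads in KO, or 9937 RPM (9816 to 10059). This was 89.8% of all reads of the 6 hairpins in WT and 90.1% in KO. Mir27b ranked 16th in WT and 13th in KO among 1230 hairpins with reads, where reads shared between hairpins were divided equally. The nearest hairpins in mean level were Mir30a and Mir411, ranked 14 and 15, and Mir125a and Mir541, ranked 17 and 18. Their KO/WT ratios were 1.02 for Mir30a, 0.957 for Mir411, 1.07 for Mir125a and 0.913 for Mir541. The ratio of Mir27b, 1.12, was above those of all 4 neighbours.

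The other guides were far lower. miR-24-3p, from both clusters together, had 887 reads in WT and 969 in KO, or 352 (329 to 375) and 378 (355 to 403) RPM. miR-27a-3p had 609 and 748 reads, or 241 (223 to 261) and 292 (271 to 314) RPM. It stood below miR-24-3p in both libraries, although miR-24-3p is the sum of a pair of hairpins. miR-23b-3p had 377 and 420 reads, or 149 (135 to 165) and 164 (149 to 180) RPM. miR-23a-3p was the lowest guide, with 288 and 337 reads, or 114 (101 to 128) and 132 (118 to 146) RPM. The order was the same in both libraries, and no interval of one guide overlapped that of its neighbour within a library. The order of miR-27a-3p and miR-23b-3p depended on exact matching: with reads carrying an untemplated 3′ tail added, miR-27a-3p had 722 reads and miR-23b-3p 757 in WT, and 840 and 834 in KO.

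**Figure D1:**
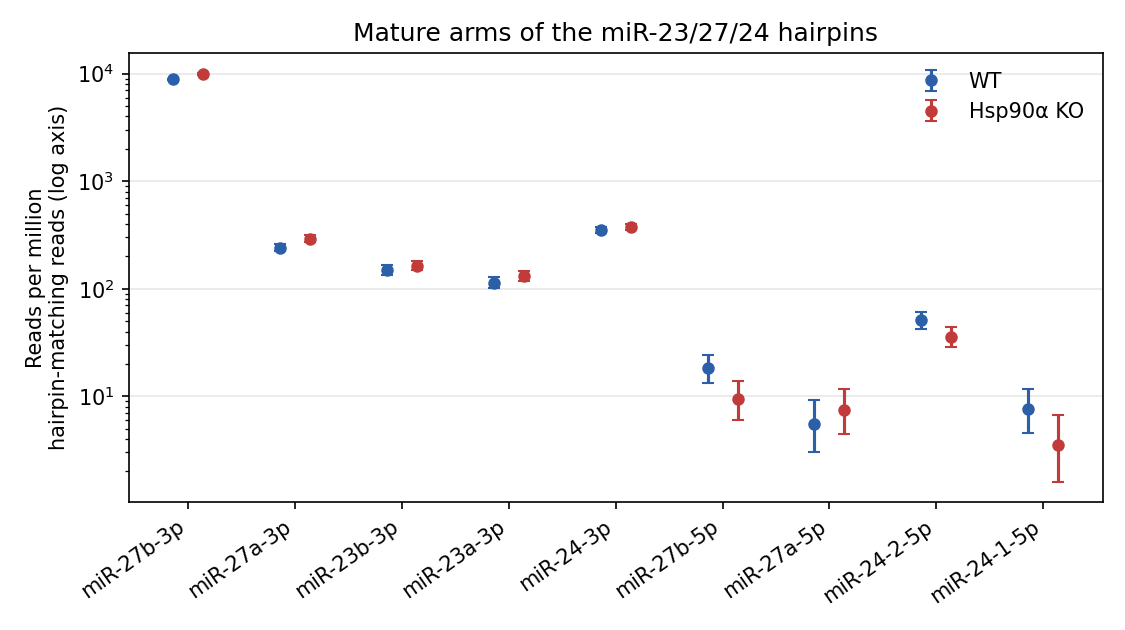
Levels of the mature arms, in RPM on a log axis, in the WT library (blue) and the Hsp90α KO library (red). Bars are 95% Clopper-Pearson intervals of counting error. miR-27b-3p lies at 8875 and 9937 RPM, and the next arm, miR-24-3p, at 352 and 378.

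The paralogous copies were compared within each library, where no scaling is needed. miR-27b-3p had 36.8 times the reads of miR-27a-3p in WT (33.9 to 39.9) and 34.0 times in KO (31.6 to 36.6). The copies therefore were far apart in both libraries, and the KO ratio over the WT ratio was 0.925, with an interval (0.829 to 1.03) that includes 1. miR-23b-3p had 1.31 times the reads of miR-23a-3p in WT (1.12 to 1.53) and 1.25 times in KO (1.08 to 1.44). For this pair the KO ratio over the WT ratio was 0.952 (0.767 to 1.18). The miR-23 imbalance was in the same direction as that of miR-27 and much smaller. With tailed reads added, miR-23a-3p over miR-23b-3p moved from 0.764 to 0.453 in WT and from 0.802 to 0.469 in KO, so the lead of the chromosome 13 copy was larger.

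The miR-24 pair can be told apart by its passenger arms, and there the chromosome 8 copy led. miR-24-2-5p had 128 reads in WT and 91 in KO, and miR-24-1-5p had 19 and 9. The ratio was 6.74 in WT (4.14 to 11.6) and 10.1 in KO (5.10 to 22.8). The KO ratio over the WT ratio, 1.5 (0.613 to 3.94), was not distinguishable from 1 at this depth. The passenger reads show which hairpin gave detectable 5p arms, and how much miR-24-3p came from each cluster was not measured. The miR-27 passengers went the other way, with miR-27b-5p at 3.29 times miR-27a-5p in WT (1.77 to 6.47) and 1.26 times in KO (0.663 to 2.44). The KO ratio over the WT ratio of this pair was 0.384 (0.151 to 0.976), from 14 to 46 reads per arm.

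Within a cluster, which is transcribed as 1 precursor, the hairpins were unequal on chromosome 13 and more even on chromosome 8. miR-27b-3p had 59.4 times the reads of miR-23b-3p in WT (53.6 to 65.9) and 60.6 times in KO (55.0 to 66.9). miR-27a-3p had 2.11 times the reads of miR-23a-3p in WT (1.84 to 2.44) and 2.22 times in KO (1.95 to 2.53). Ligation and amplification differ between sequences, so these ratios describe reads, not molecules. With tailed reads added, miR-27b-3p over miR-23b-3p was 32.9 in WT and 33.5 in KO, still far from 1. miR-27b-3p over miR-24-3p was 25.2 in WT and 26.3 in KO, and 15.4 and 16.9 with tailed reads.

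The spread within the clusters was set beside all groups of hairpins that lie within 10000 nt of the next on one strand, using hairpins with at least 10 reads. There were 42 such groups, including both miR-23/27/24 clusters, and the reads of their highest over their lowest hairpin had a median of 12.0 in WT and 12.9 in KO. The chromosome 13 cluster had 58.8 in WT and 60.7 in KO, and 12 groups, itself included, were at or above it in each library. The chromosome 8 cluster had 2.39 and 2.53, with 35 groups at or above it. Reads found in several hairpins were divided equally here. Mir24-1 thereby had 462.5 reads in WT and 493.5 in KO, of which 19 and 9 were specific to it. How much miR-24-3p came from each cluster was not measured, and another division could change both spreads. With equal division, the chromosome 13 cluster lay in the upper part of the range and the chromosome 8 cluster in the lower part. Neither was at its end. The groups had from 2 to 35 hairpins in use, and the placings were not matched for this number.

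**Figure D2:**
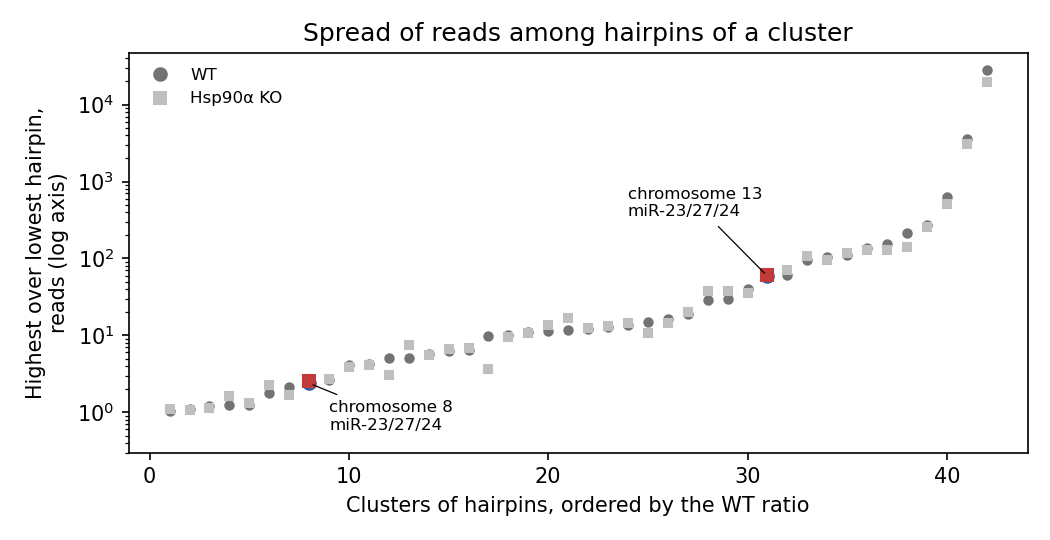
Reads of the highest over the lowest hairpin in each of 42 groups of neighbouring hairpins, on a log axis, ordered by the WT ratio. Circles are WT and squares are Hsp90α KO. Reads found in several hairpins are divided equally among them. The miR-23/27/24 clusters are coloured, with the chromosome 13 cluster at 58.8 and 60.7 and the chromosome 8 cluster at 2.39 and 2.53.

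The comparison of KO with WT asked whether loss of HSP90α went with a change of these miRNAs. All 5 guides had point values slightly above 1. The KO/WT ratio was 1.12 for miR-27b-3p (1.10 to 1.14) and 1.21 for miR-27a-3p (1.09 to 1.35). It was 1.15 for miR-23a-3p (0.982 to 1.35), 1.10 for miR-23b-3p (0.953 to 1.26) and 1.08 for miR-24-3p (0.981 to 1.18). Per hairpin-matching reads, the miR-27 guides had intervals above 1 and those of the other 3 guides included 1. These calls depended on the scaling. With TMM the ratio was 1.26 for miR-23a-3p (1.08 to 1.49), 1.20 for miR-23b-3p (1.05 to 1.39) and 1.18 for miR-24-3p (1.08 to 1.29). The intervals of these 3 guides were also above 1 with the median of ratios and per all reads. These scalings rest on unlike sets of reads. Hairpin-matching reads were 39.4% of all reads in WT and 45.8% in KO. TMM and the median of ratios took the counts of all hairpins as input, those called lower below included. TMM trims extreme hairpins, and the median of ratios leaves out hairpins without reads in a library. A hairpin was called changed when its KO/WT ratio passed 1.5-fold. None of the 6 member hairpins was called in either direction. Among the 298 hairpins with at least 100 reads, 0% were called higher and 20.1% lower, and of the 117 hairpins with at least 1000 reads none was called.

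The median hairpin had a KO/WT ratio of 0.949 (log2 -0.07), with the 5th and 95th percentiles at 0.299 and 1.27. Of the 60 hairpins called lower, 55 had a Gm name, and among the 117 hairpins with at least 1000 reads the median was 0.981 and the 5th percentile 0.832. Of the 298 hairpins, 85.9% had a ratio below that of miR-27b-3p, 93.3% below miR-27a-3p, 89.9% below miR-23a-3p, 82.2% below miR-23b-3p and 78.9% below miR-24-3p. All guides lay above most hairpins and within the 5th to 95th percentiles. Among the hairpins with at least 1000 reads the placings were close to these, from 82.1% for miR-24-3p to 93.2% for miR-27a-3p. Relative to the median hairpin the ratio was 1.18 for miR-27b-3p and 1.27 for miR-27a-3p. A change of scaling moves every ratio by the same amount and leaves the ratios to the median hairpin as they are. The ratios rose by 0.13 on the log2 scale with TMM, by 0.15 with the median of ratios and by 0.22 per all reads. The remaining totals moved them little, with miR-27b-3p at 1.10 when Mir10b was left out of the total and 1.13 per reads of 20 to 23 nt.

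The families and clusters had ratios close to one another. The miR-27 family went from 23224 to 26424 reads, and its KO/WT ratio was 1.12 (1.10 to 1.14). The miR-23 family had 678 and 760 reads and a ratio of 1.10 (0.994 to 1.23), and the miR-24 family 1035 and 1071 reads and a ratio of 1.02 (0.935 to 1.11). The miR-24 value crossed 1 with tailed reads added, to 0.982. Reads specific to the chromosome 8 cluster numbered 1041 in WT and 1197 in KO, or 413 and 467 RPM, a ratio of 1.13 (1.04 to 1.23). Reads specific to the chromosome 13 cluster numbered 22835 and 25906, or 9050 and 10114 RPM, a ratio of 1.12 (1.10 to 1.14). The chromosome 13 cluster had 21.9 times the specific reads of the chromosome 8 cluster in WT (20.6 to 23.4) and 21.6 times in KO (20.4 to 22.95). The KO/WT ratio of the chromosome 8 cluster over that of the chromosome 13 cluster was 1.01 (0.93 to 1.10). This compares summed specific reads, of which miR-27b-3p held 22393 of 22835 on chromosome 13 in WT, and it leaves out miR-24-3p.

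**Figure D3:**
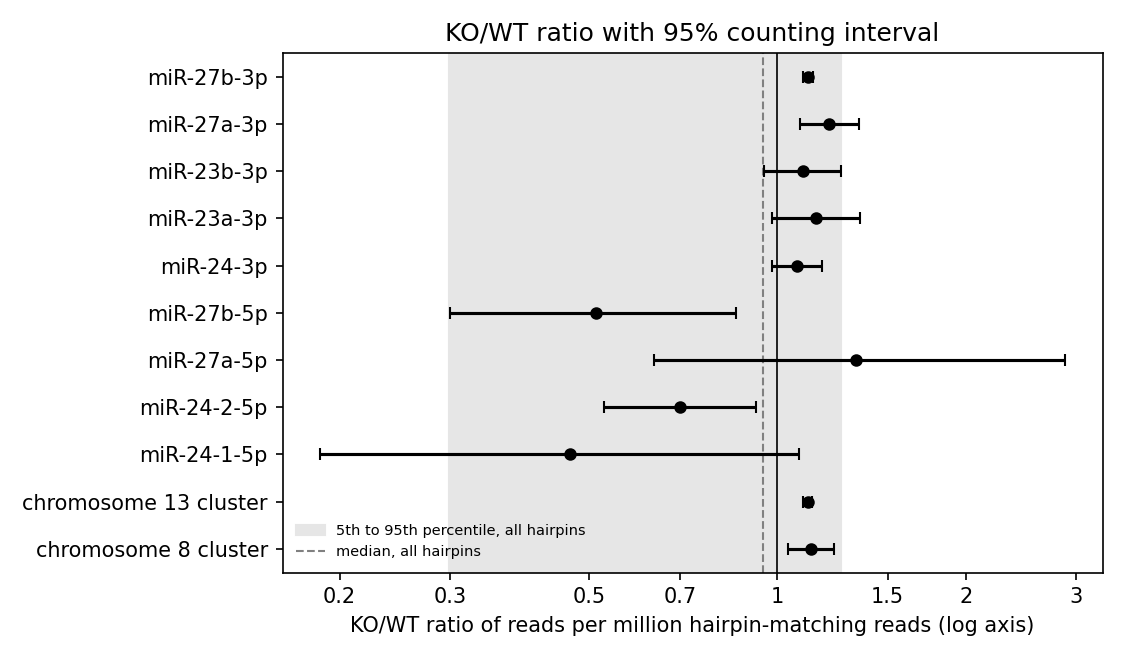
KO/WT ratio of RPM for the arms and for the cluster-specific reads, on a log axis, with 95% intervals of counting error. The grey band spans the 5th to 95th percentile of 298 hairpins (0.299 to 1.27) and the dashed line is their median (0.949). The 5 guides lie between 1.08 and 1.21, and miR-27b-5p and both miR-24 passengers lie below 1.

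Summed, the passenger arms went the other way from the guides, but miR-27a-5p did not. All 5p arms together had 208 reads in WT and 143 in KO, or 82.4 and 55.8 RPM, a KO/WT ratio of 0.677 (0.543 to 0.842). All 3p arms together had 24728 and 28110 reads and a ratio of 1.12. The 5p arms over the 3p arms, KO over WT, came to 0.605 (0.485 to 0.752), a quotient in which the scaling cancels. This quotient sets unlike hairpins against each other. In WT, miR-24-2-5p held 128 of the 208 5p reads and miR-27b-3p 22393 of the 24728 3p reads. Counts of single passengers were small. miR-24-2-5p had 50.7 RPM in WT and 35.5 in KO, a ratio of 0.70 (0.529 to 0.923). miR-27b-5p had 46 and then 24 reads, or 18.2 and 9.37 RPM, a ratio of 0.514 (0.30 to 0.860). Both ratios had intervals below 1 per hairpin-matching reads. The interval of miR-24-2-5p reached 1.01 with TMM, 1.03 with the median of ratios and 1.07 per all reads, and that of miR-27b-5p reached 1.001 per all reads. The interval of miR-24-1-5p reached above 1, with 7.53 and 3.51 RPM and a ratio of 0.467 (0.186 to 1.08). miR-27a-5p had 14 and 19 reads and a ratio of 1.34 (0.635 to 2.88). miR-23a-5p had 1 read in WT and 0 in KO, and miR-23b-5p had 0 in both.

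For comparison, 103 hairpins with a single-locus minor arm of at least 20 reads were examined, Mir27a and Mir27b among them. Of their minor arms, 11.7% were called lower and 5.83% higher past 1.5-fold. Of the member passengers, miR-27b-5p and miR-24-1-5p passed the lower fold, and 4 other minor arms had a ratio at or below that of miR-27b-5p. The median KO/WT ratio of the minor arms was 0.966, their median ratio relative to the major arm of the same hairpin was 0.951, and this was below 1 in 59 of the 103. The median minor arm was thus slightly lower in KO, and the miR-27b-5p value was in the lower tail.

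The share of the passenger differed among the families. The 5p arm made up 14.2% of miR-24 reads in WT (12.1 to 16.5) and 9.34% in KO (7.66 to 11.2). These intervals did not overlap. With tailed reads counted on both arms the share was 8.50% in WT (7.24 to 9.90) and 5.80% in KO (4.75 to 6.995). It made up 2.25% of the specific reads of Mir27a in WT and 2.48% in KO, and 0.205% of those of Mir27b in WT and 0.0942% in KO. Mir27b, the hairpin with the most reads, had a lower passenger share than its paralog in both libraries. Relative to its own guide, miR-27b-5p had a KO over WT quotient of 0.459 (0.268 to 0.768). For miR-27a-5p this quotient was 1.10 (0.520 to 2.40). In Mir23a the 5p arm held 0.346% in WT and 0% in KO, and in Mir23b 0% in both, where 0 of 377 and 0 of 420 reads allow a share of up to 0.974% and 0.874%.

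**Figure D4:**
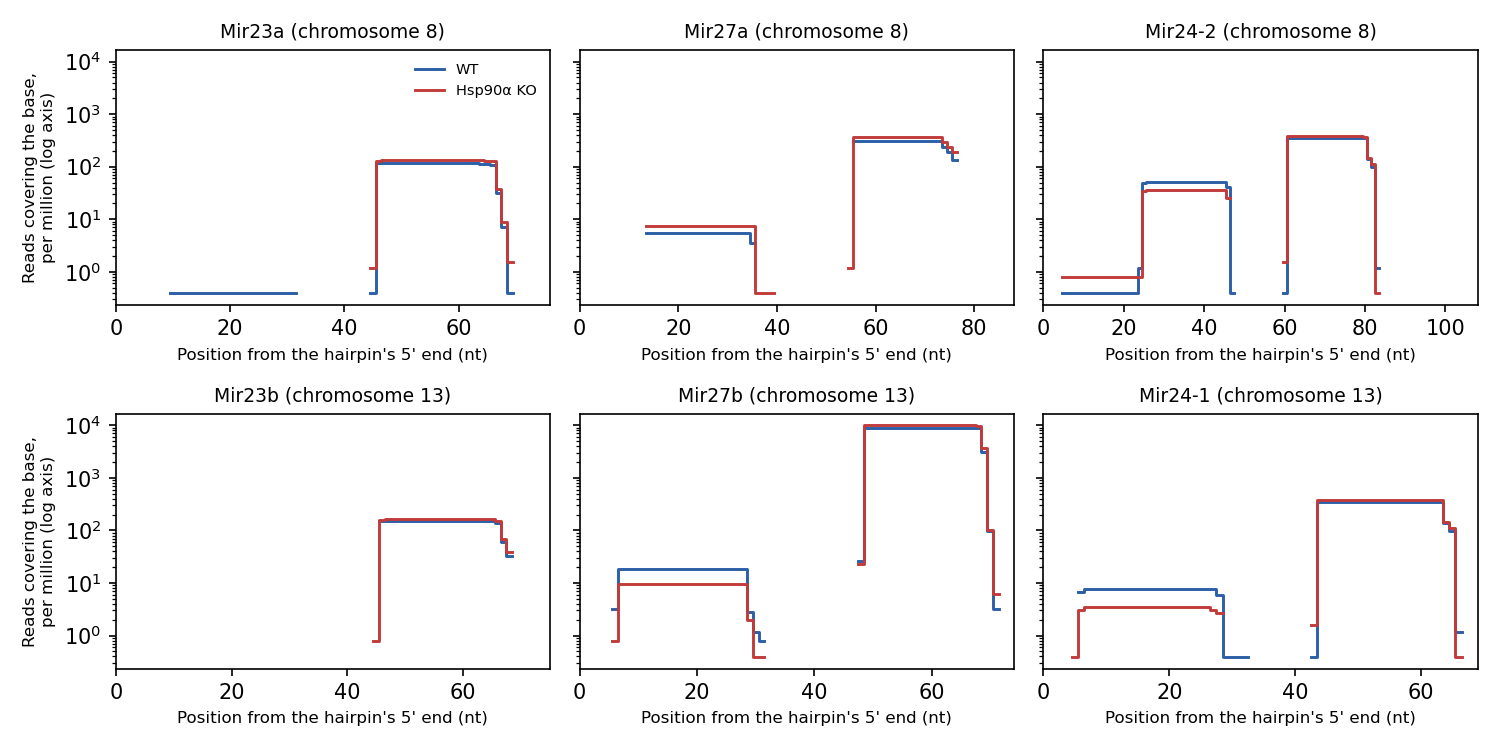
Reads covering each base of the 6 hairpins, in RPM on a log axis, by the position from the 5′ end of the hairpin in nt. Blue is WT and red is Hsp90α KO. Bases without reads are left blank, and reads found in several hairpins are counted in each. Every hairpin has its main block on the 3′ arm, which in Mir24-1 and Mir24-2 holds only reads found in both. On the 5′ arm, Mir23b has no reads and Mir23a has 1 in WT and 0 in KO.

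The guides were cut at a fixed 5′ end, which sets the seed. Between 97.4% and 100% of the reads of each guide began at the main start, and this equalled the RefSeq start in the guides printed above. For miR-27b-3p the share was 99.4% in WT and 99.5% in KO, and 67 and 55 reads began 1 base upstream. No other start was frequent, so the reads carried essentially the seeds shown.

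Among exact matches, the 3′ end varied, and it varied differently in the paralogs. The most frequent miR-27b-3p read was 20 nt long, 1 base shorter than the RefSeq form. In the DNA letters of the reads it is
top miR-27b-3p read: tTCACAGTggctaagttctg
and it made up 63.3% of the arm in WT and 62.2% in KO, against 34.1% and 35.4% for the 21-nt RefSeq form. For miR-27a-3p the 21-nt RefSeq form led, with 54.0% in WT and 63.9% in KO. miR-27a-3p also had 20.0% of reads at 19 nt in WT and 17.1% in KO, against 1.08% and 0.904% in miR-27b-3p. At 19 nt the copies differ only in the last base, so a shorter miR-27b-3p read with an added C would be counted as miR-27a-3p. The ratio of 20-nt to 21-nt reads was 1.85 for miR-27b-3p in WT and 1.75 in KO, and 0.477 and 0.297 for miR-27a-3p. In the summed reads of the hairpins outside the clusters, without Mir10b, this ratio was 0.429 and 0.399. miR-27b-3p had relatively more 20-nt reads than this sum in both libraries, and miR-27a-3p fewer in KO. The spread among single hairpins was not examined. miR-24-3p also had more reads at 20 nt than at 21 nt, 518 and 109 in WT and 572 and 93 in KO. The quotient of the miR-27 paralogs was 3.87 in WT (3.18 to 4.72) and 5.88 in KO (4.86 to 7.16).

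The balance of lengths also differed between the libraries. The KO over WT quotient of the 20-nt to 21-nt ratio was 0.947 for miR-27b-3p (0.911 to 0.984), close to that of the other hairpins summed, 0.932. For miR-27a-3p it was 0.623 (0.472 to 0.820). Among exact matches, the most frequent miR-24-3p read was 20 nt long, at 58.4% in WT and 59.0% in KO. The 22-nt RefSeq form had 27.5% and 29.3%. Tailed reads are left out of these shares. The 22-nt form with 1 added U had 584 reads in WT and 552 in KO, beside 518 and 572 for the 20-nt read. For exact matches of miR-24-3p the KO over WT quotient of 20-nt to 22-nt reads was 0.949 (0.767 to 1.18). miR-23a-3p was mostly 21 nt long, 67.0% in WT and 67.7% in KO. miR-23b-3p was spread further, with 54.1% and 51.0% of exact matches at 21 nt and 20.95% and 23.1% at 23 nt. Its 21-nt peak depended on exact matching. The 23-nt form with 1 added U had 311 reads in WT and 315 in KO, more than the 204 and 214 exact reads of 21 nt.

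**Figure D5:**
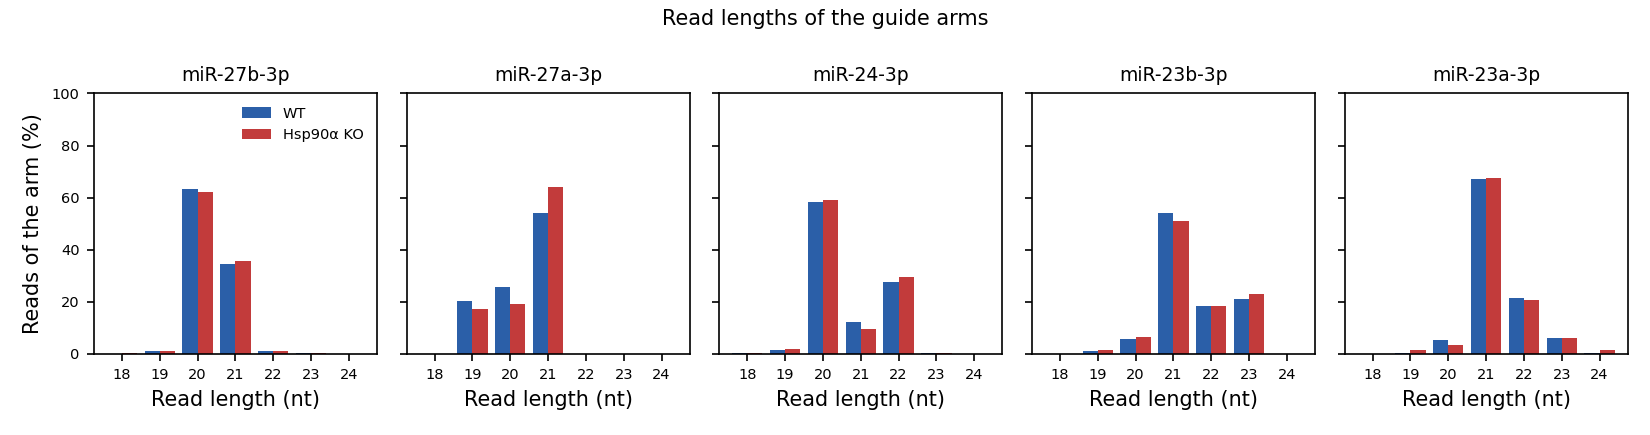
Share of the exact-match reads of each guide, in percent, by read length in nt, in WT (blue) and Hsp90α KO (red). Tailed reads are not counted. miR-27b-3p and miR-24-3p peak at 20 nt and the other 3 guides at 21 nt.

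Assignment of the miR-27 copies rests on base 19, so that base was examined for sequencing error. Reads that were miR-27b-3p except for the miR-27a base at position 19 numbered 156 in WT and 142 in KO at 20 nt, and 329 and 478 at 21 nt. The same U-to-C change at the other 6 U positions of miR-27b-3p gave at most 4 reads in WT and 3 in KO at 20 nt, and at most 3 in each at 21 nt. A G at position 19, which neither copy has, gave 25 reads in WT and 21 in KO at 20 nt, and 1 in each at 21 nt. Some other changes were more frequent than U to C. A to C at position 6 gave 2 reads in WT and 43 in KO at 20 nt, and 2 and 19 at 21 nt. The counts with the miR-27a base were above all of these. In 19-nt reads this base is the last, where a base added to a shorter miR-27b-3p read cannot be told apart from miR-27a-3p. With reads of 20 nt or more only, miR-27a-3p over miR-27b-3p was 0.0220 in WT and 0.0246 in KO, compared with 0.0272 and 0.0294 for all lengths. Reads too short to tell the copies apart, up to 19 nt, numbered 162 in WT and 180 in KO for miR-27 and 12 and 3 for miR-23. No read was shared with a hairpin outside the clusters.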

How the data were processed

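Small RNA libraries were made by the authors with the TruSeq small RNA kit, sequenced as single-end reads and clipped of adaptors. The deposited files hold, per the file contents, the read count of each distinct sequence of 11 to 48 nt, not normalized and without molecular identifiers. The submitters' processing notes name build mm9, which was not used here.

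Reads 16 nt or longer were placed by exact sense-strand identity in miRNA hairpins of GENCODE M21 (GRCm38). Arms were RefSeq mature sequences extended by 3 bases, or the 5′ or 3′ side of the hairpin where RefSeq lists none, and 11 mature entries were matched. KO/WT ratios and their quotients carry exact conditional 95% intervals (Python 3.11.15, scipy 1.17.1). With 1 library per genotype no model was fitted. Scaling factors were taken from edgeR 4.0.16 (TMM) and DESeq2 1.42.0 (median of ratios), without their tests. Assignment and intervals were tested on simulated data. Alternatives were other totals, minimum lengths of 18 and 20 nt, sequences read once left out, and tails of 1 to 3 untemplated bases after at least 18 matched bases. The alternatives for ratios within a cluster and for 5p over 3p arms, the miR-24 share with tails, and the minor-arm and neighbouring-hairpin backgrounds were chosen after seeing the data.

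The named genes were the 6 hairpins and their arms, Mir10b, the 2 hairpins ranked directly above and below Mir27b, hairpins opposite to or sharing reads with a member, Mir202, Mir126a and Hsp90aa1. Members and marker lists were chosen with earlier results of these data known.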

Additional observations from a re-analysis of the deposited data

Results flagged for a closer look

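Reads with an untemplated 3′ tail lie outside the exact matches used for the levels. The 6 hairpins had 3830 of them in WT, 13.3% of reads with and without a tail, and 3768 in KO, 11.8%. A single U was 82.6% of the tails in WT and 81.6% in KO. Tails were most frequent on miR-23b-3p, with 50.2% in WT and 49.6% in KO, and on miR-24-3p, with 45.0% and 41.5%. They were less frequent on miR-23a-3p (16.04% and 13.8%), miR-27a-3p (15.7% and 10.95%) and miR-27b-3p (10.1% and 8.90%). The paralogous guides miR-23a-3p and miR-23b-3p thus differed in tailing in both libraries by far more than their counting error. Among 298 hairpins with at least 100 reads the median share of tailed reads was 13.4% in WT and 13.9% in KO, and 14 hairpins were above Mir23b in each library. For miR-24-3p, 22 nt with 1 added U had 584 reads in WT and 552 in KO. Exact 23-nt reads of this guide numbered 3 and 1. For miR-27b-3p, 21 nt with 1 added U had 1786 and 1705 reads, beside 254 and 251 exact 22-nt reads. Its 20-nt form with 1 added U had 193 and 237, beside 7677 and 9067 exact 21-nt reads. Whether tails were added in the cell or were misread last bases was not tested.

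Sense matching left out reads from the opposite strand. They were found on both miR-24 hairpins, with 14 reads in WT and 12 in KO on Mir24-1, and 9 in WT and 10 in KO on Mir24-2, and a read that matches both hairpins is counted in each. Hairpins annotated there, Mir3074-1 and Mir3074-2, had 9.5 and 7 reads and 4.5 and 5 reads in WT and KO, with shared reads divided. The other 4 member hairpins had 0 antisense reads in both libraries.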

How the results depend on the processing

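Of 225 alternative values, 173 stayed close to the value reported, within its counting interval or, for the share of hairpins past the fold, within 1.5 times. Of all ratios, 2 crossed 1, both with tailed reads. The KO/WT ratios moved with the scaling total. Per all reads they were 1.29 for the miR-23 family, 1.30 for miR-27, 1.19 for miR-24, 1.32 for the chromosome 8 cluster, 1.30 for the chromosome 13 cluster and 1.30 for all 6 hairpins. With the median of ratios they were 1.23, 1.25, 1.13, 1.26, 1.24 and 1.24 in the same order. With TMM they were 1.23 for miR-27, 1.12 for miR-24, 1.24 for chromosome 8, 1.23 for chromosome 13 and 1.22 for all 6 hairpins. Of 110 alternative ratios of guides, families and clusters, 1 fell on the other side of 1, the miR-24 family with tailed reads. The 5p arms with alternatives were miR-27b-5p, miR-24-1-5p and miR-24-2-5p, each already below 1 in the main setting. All 30 of their alternative point values stayed below 1, and some of the intervals reached above 1. No alternatives were computed for miR-27a-5p, whose KO/WT ratio was 1.34.

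With tailed reads the ratio of all 6 hairpins was 1.10, miR-23a-3p over miR-23b-3p was 0.453 in WT and 0.469 in KO, miR-27b-3p over miR-23b-3p was 32.9 and 33.5, miR-27b-3p over miR-24-3p was 15.4 and 16.9, and miR-24-3p over miR-27a-3p was 2.24 and 1.97. The 5p share of miR-24 was 8.50% in WT and 5.80% in KO, and the 5p over 3p quotient, 0.612, was close to 0.605. miR-27a-3p over miR-23b-3p was 0.954 in WT, a change of direction from 1.62, and 1.01 in KO. With reads of 20 nt or more, miR-27a-3p over miR-27b-3p was 0.0220 and 0.0246, miR-27a-3p over miR-23a-3p 1.69 and 1.87, miR-24-3p over miR-27a-3p 1.80 and 1.53, and miR-27a-3p over miR-23b-3p 1.30 and 1.5, since only reads of 19 nt or less were removed. The share of hairpins called higher was 3.01% with at least 20 reads and 2.68% with the median of ratios, and the share called lower was 0% with at least 1000 reads.

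No paired analysis was possible because each genotype has 1 library. Counting intervals do not cover differences between animals, pools or library preparations, and passenger arms under about 50 reads leave intervals wider than 1.5-fold.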
